A study of Mus musculus with 8 samples.

Results

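Potassium channel genes were taken by symbol from the whole table of aortic expression. The symbols were those that begin with Kcn, followed by at least 1 family letter and then a number. Abcc8 and Abcc9, the sulfonylurea receptors of the ATP-sensitive channel, were taken with them. Of 22063 genes listed, 95 symbols matched, 50 of them reached 40 counts summed over the 8 libraries and make up the members described here, and 45 were below that minimum. The members just inside the minimum were Kcnj5 with 44 counts and Kcnj4 with 50, and the genes just outside it were Kcna3 with 36 and Kcnj12 with 35. RNA was sequenced from the aortas of male C57BL/6J mice on a chow diet that were 3 weeks old at the start. All mice, controls included, drank β-aminopropionitrile (BAPN, an inhibitor of the collagen and elastin cross-linking enzyme lysyl oxidase that is used to provoke aortic dissection) at 1 g/kg/day for 3 weeks. The colchicine group (n = 4) also received colchicine, a drug that blocks microtubule assembly, by gavage at 200 µg/kg/day, and the vehicle group (n = 4) received saline by gavage. No mice without BAPN were analysed here, so each difference is one between BAPN-treated groups. The labels do not say that each library came from a separate animal, and the p-values measure only the spread between these libraries, which may be technical.

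Potassium channels let potassium leave the smooth muscle cell and hold its membrane potential negative, which keeps voltage-gated calcium channels closed and the vessel relaxed. In arterial smooth muscle the main classes are large-conductance calcium-activated (BK) channels, voltage-gated (Kv) channels, ATP-sensitive (KATP) channels, inward rectifiers and tandem-pore (K2P) leak channels. Most are built from pore-forming subunits and accessory subunits that set gating and surface delivery, and macrophages and endothelial cells of the vessel wall carry channel genes of their own.

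The BK pair (pore Kcnma1, accessory Kcnmb1) and the vascular KATP pair (pore Kcnj8, receptor Abcc9) carry most of the description, and the sequence upstream of each start is shown because the partners of a pair differ there in base composition. Each run reads 5′ to 3′ on the gene's strand, covers 200 bases that end 51 bases before the RefSeq start (GRCm38.p6), and has CG dinucleotides in capitals. The runs of Abcc9 at chr6:142702325-142702524 and Kcnj8 at chr6:142571665-142571864 are both on the minus strand. That of Kcnmb1 is at chr11:33962763-33962962 on the plus strand, and that of Kcnma1 at chr14:24004256-24004455 on the minus strand. The Kcnma1 run lies inside the gene interval given below (chr14:23289431-24014491), upstream of a RefSeq start within it.
Abcc9: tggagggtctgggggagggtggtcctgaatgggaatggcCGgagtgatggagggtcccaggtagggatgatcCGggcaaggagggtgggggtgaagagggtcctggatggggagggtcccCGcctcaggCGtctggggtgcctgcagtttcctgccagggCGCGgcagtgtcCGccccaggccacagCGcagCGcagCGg
Kcnj8: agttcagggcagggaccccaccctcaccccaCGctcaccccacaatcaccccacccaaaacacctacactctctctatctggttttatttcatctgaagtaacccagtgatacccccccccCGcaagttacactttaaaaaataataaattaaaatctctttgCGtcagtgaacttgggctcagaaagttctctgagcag
Kcnmb1: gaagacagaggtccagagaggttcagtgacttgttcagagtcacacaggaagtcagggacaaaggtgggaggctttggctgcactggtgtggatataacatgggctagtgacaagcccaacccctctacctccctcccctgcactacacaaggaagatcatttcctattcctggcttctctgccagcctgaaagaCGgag
Kcnma1: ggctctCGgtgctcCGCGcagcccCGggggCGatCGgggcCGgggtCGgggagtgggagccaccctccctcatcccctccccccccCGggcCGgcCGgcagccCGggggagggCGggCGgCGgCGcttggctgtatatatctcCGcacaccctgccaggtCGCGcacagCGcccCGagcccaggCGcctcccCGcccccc
The Kcnma1 run held 23 CG dinucleotides at 80.0% G or C, whereas the Kcnmb1 run held 1 at 53.0%. The Abcc9 run held 10 at 69.5%, and the Kcnj8 run 3 at 47.5%. RefSeq promoter windows, from 250 bases before to 50 after a start, were found for 37 of the 50 members. Over all 32851 such windows, of 300 bases each, the median was 7 CG dinucleotides. The whole windows of Kcnma1, Kcnmb1, Abcc9 and Kcnj8, longer than the printed runs, held 36, 1, 16 and 9. The CArG box, the motif bound by serum response factor, was searched on both strands and was in 0 of the 37 members with a window, against 1.81% of 27025 genes. TATAAA, searched on both strands, was in 2 of the 37, Kcnab1 and Kcnj15, against 15.7% of genes. A motif match or its lack describes only the letters in these windows.

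Library totals lay between 15427898 and 18460006 estimated counts. The vehicle libraries were less alike (Spearman correlation over genes 0.905 to 0.956) than the colchicine libraries (0.982 to 0.991). Haemoglobin genes took 14.9% of counts in vehicle 1 and 6.21% in vehicle 4, against 0.0419% to 0.318% in the other 6 libraries. Mitochondrial genes took 10.4% and 7.21% in the same 2 vehicle libraries, against 2.26% to 4.87% elsewhere.

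Enough reads were present to test 39 members, and the other 11, with totals of 44 to 93 counts, were not tested. Of the 39, 7 rose with colchicine and 4 fell at an adjusted p under 0.05 (edgeR's quasi-likelihood test, Benjamini-Hochberg adjustment over all 13431 genes tested). That is 28.2% of the tested members, where 34.4% of all genes tested passed. Members that rose were 17.9% of those tested against 17.4% of all genes, and members that fell were 10.3% against 17.0%. The members' share was near that of all genes. The median log2 change was 0.48 over the tested members and −0.03 over all genes, and 28 of 39 members had a positive change against 6524 of 13431 genes. The members' median was 0.25 without vehicle 1, 0.30 without colchicine 2, 0.29 without colchicine 4 and 0.082 without vehicle 1 and 4 together. Values of the 2 groups did not overlap for 14 members (35.9%), against 39.1% of all genes. On a log2(TPM + 1) scale, where the median of all genes shifted to 0.35, the members called were 9 up and 0 down, and all genes 2347 up and 863 down, against 2342 and 2277 by counts. Exons of Abcc9, Kcnab1, Kcnma1, Kcnab2, Kcnt2 and Kcnq5 overlap noncoding genes, and how reads there were assigned is not known here.

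**Figure D1:**
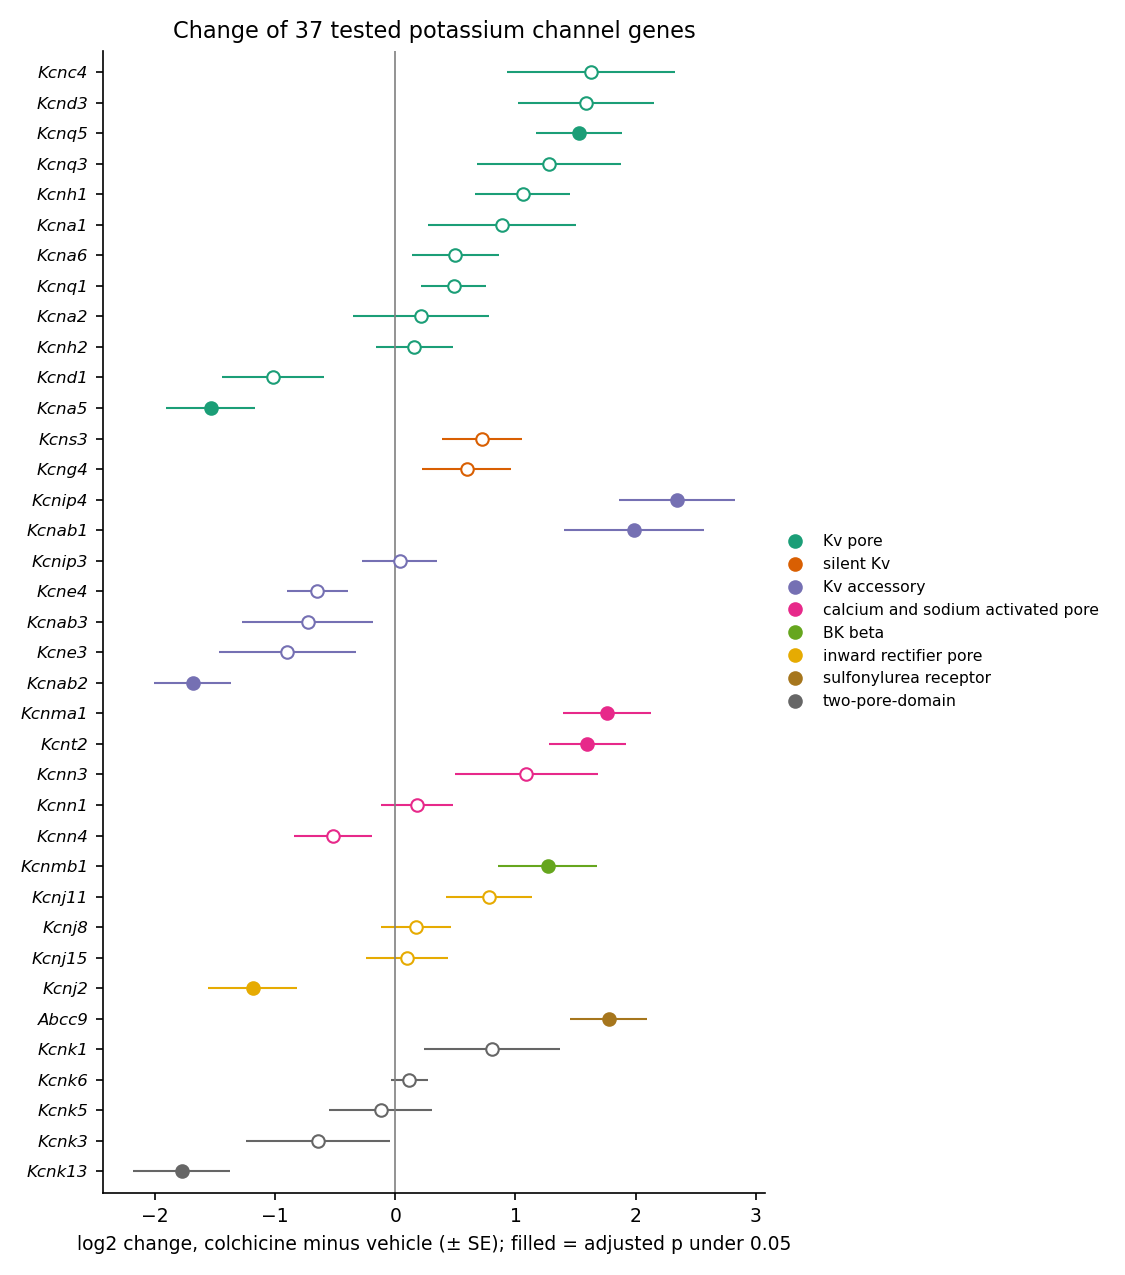
Log2 change, colchicine minus vehicle, with its standard error for 37 of the 39 tested potassium channel members, from the edgeR fit (n = 4 per group), grouped by family. The 7 members that rose include Abcc9 at 1.78 and the 4 that fell include Kcnk13 at −1.78.

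BK channels open on calcium and depolarisation. Kcnma1 encodes their only pore subunit (GRCm38 chr14:23289431-24014491, minus strand). Its level was 8.30, 11.4, 22.7 and 26.3 CPM (counts scaled to the library total after TMM normalisation) in vehicle 1 to 4 and 80.8, 56.9, 45.4 and 50.6 in colchicine 1 to 4. All colchicine libraries were above all vehicle libraries, and the means were 17.2 ± 8.69 and 58.4 ± 15.6 CPM (SD, n = 4). The log2 change was 1.76 ± 0.37 (SE, adjusted p = 0.00948). Kcnmb1 (chr11:33963013-33973641, plus strand), the smooth muscle accessory subunit that raises calcium sensitivity, was at 60.4, 40.7, 129 and 171 CPM with vehicle and 197, 278, 274 and 219 with colchicine. The groups did not overlap, and vehicle 3 and 4 were well above vehicle 1 and 2. The log2 change was 1.27 ± 0.41 (adjusted p = 0.0412). That call did not hold when any one of 7 libraries was left out (adjusted p 0.0512 to 0.118), and held only without vehicle 4. The ratio of Kcnmb1 to Kcnma1 in TPM, a scale that corrects for transcript length, was 8.64, 4.01, 6.87 and 8.59 with vehicle and 2.96, 6.21, 7.12 and 5.37 with colchicine. These ratios overlapped, with a log2 difference of −0.36 (exact two-sided permutation test, p = 0.429). The difference was −0.094 without colchicine 1, −0.61 without vehicle 2, −0.24 without vehicle 4 and −0.017 without vehicle 1 and 4.

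KATP channels pair an inward-rectifier pore with a sulfonylurea receptor. Abcc9 (chr6:142587862-142702315, minus strand), the receptor of the vascular channel, was at 75.6, 66.5, 138 and 146 CPM with vehicle and 528, 351, 272 and 307 with colchicine. Every colchicine library was above every vehicle library, 365 ± 114 against 106 ± 41.2 CPM. The log2 change was 1.78 ± 0.32 (adjusted p = 0.00672), and it passed in all 18 alternative settings. Kcnj8, the pore subunit, is its neighbour on the same strand, 16247 bases away (chr6:142564837-142571614). Its level was 48.2, 16.8, 45.9 and 43.6 CPM with vehicle and 49.9, 42.2, 36.5 and 45.2 with colchicine. The groups overlapped, and vehicle 2 stood below the other libraries. The log2 change of Kcnj8 was 0.17 ± 0.29 (adjusted p = 0.666), and without vehicle 2 it was −0.077. The TPM ratio of Abcc9 to Kcnj8 was 0.546, 1.43, 1.07 and 1.18 with vehicle and 3.71, 2.92, 2.62 and 2.38 with colchicine. The log2 ratio was higher by 1.52 with colchicine, without overlap (exact two-sided permutation test, p = 0.0286, the smallest that 4 against 4 can give). Abcc8, the receptor of pancreatic and neuronal KATP channels, was among the untested members, at 0.275 to 0.369 CPM with vehicle and 0.439 to 0.963 with colchicine.

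**Figure D2:**
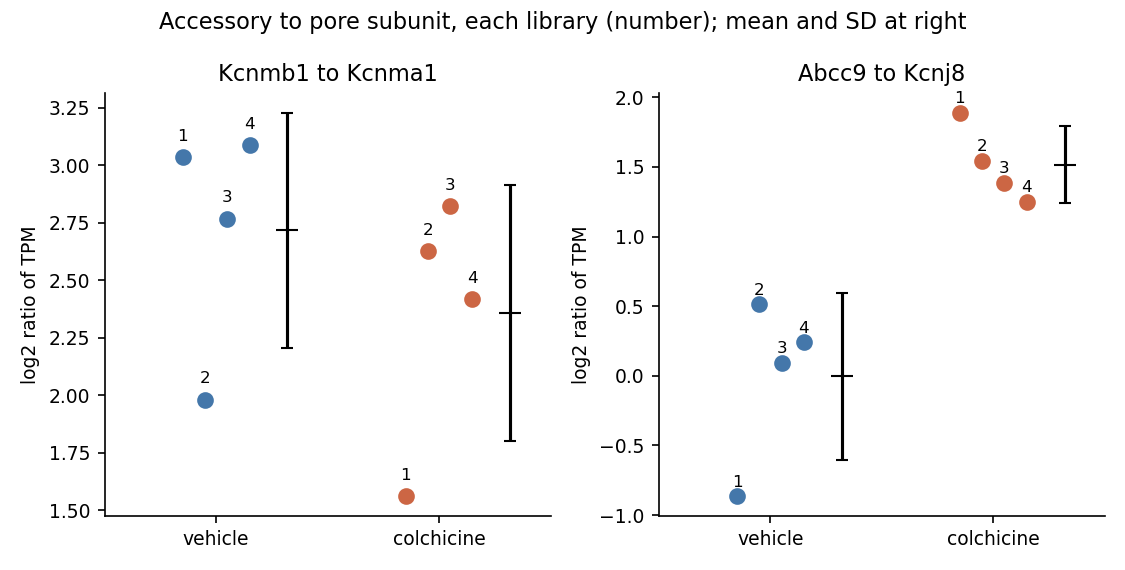
Log2 TPM ratios of Kcnmb1 to Kcnma1 and of Abcc9 to Kcnj8 in each numbered library (points, n = 4 per group), with the group mean and SD at the right of the points. On the linear scale the Abcc9 to Kcnj8 ratio was at most 1.43 with vehicle and at least 2.38 with colchicine, whereas the Kcnmb1 to Kcnma1 ratios overlapped.

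The accessory subunits of Kv channels held 8 members, of which 7 were tested, 2 rose and 1 fell, where 34.4% of all genes passed. Kcnab1 (chr3:65109384-65378223, plus strand), a cytoplasmic β subunit that speeds inactivation of Shaker-type channels, was at 13.8, 10.2, 50.5 and 73.4 CPM with vehicle and 156, 191, 128 and 111 with colchicine. The groups did not overlap, and the log2 change was 1.98 ± 0.58 (adjusted p = 0.0296). The call was lost without any one of vehicle 1 or the 4 colchicine libraries (adjusted p 0.0536 to 0.0885). Kcnab2 (chr4:152390742-152477871, minus strand), a related β subunit gene, went the opposite way. Its level was 17.1, 26.8, 10.9 and 14.6 CPM with vehicle and 4.82, 4.36, 4.33 and 8.06 with colchicine. No colchicine library reached the lowest vehicle library, and the log2 change was −1.69 ± 0.32 (adjusted p = 0.00748). Kcnip4 (chr5:48389502-49524907, minus strand), a calcium-binding protein that associates with A-type channels, was at 0.955, 0.549, 1.95 and 2.34 CPM with vehicle and 10.8, 9.13, 4.89 and 4.77 with colchicine. Its log2 change of 2.34 ± 0.48 (adjusted p = 0.00925) was the largest rise among the tested members in this test, whereas on log2(TPM + 1) Kcnab1 (2.72) was above Kcnip4 (1.97). Exons of Kcnip4 overlap the opposite-strand gene 5730480H06Rik, whose own log2 change was 0.17 ± 0.16 (adjusted p = 0.419), and whether counting used strand is not given in the sources used here. Kcne4, a small regulatory subunit of KCNQ-type channels, had a log2 change of −0.65 ± 0.25 and did not pass (adjusted p = 0.0751).

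Of the Kv pore genes 15 were members and 14 were tested, with 1 rise and 1 fall, where 34.4% of all genes passed. Their median log2 change was 0.69, against −0.03 over all genes. Kcnq5 (chr1:21398403-21961942, minus strand), an M-type pore subunit of vascular smooth muscle, was at 1.98, 1.54, 4.05 and 4.74 CPM with vehicle and 9.52, 8.61, 9.89 and 7.62 with colchicine. The groups did not overlap, and the log2 change was 1.53 ± 0.36 (adjusted p = 0.0134). Kcna5 (chr6:126532551-126535412, minus strand), a Shaker-type delayed rectifier of arterial muscle that macrophages also express, was at 5.88, 7.41, 9.05 and 3.20 CPM with vehicle and 2.89, 1.32, 1.94 and 2.63 with colchicine. Vehicle 4 was only just above colchicine 1, and the log2 change was −1.54 ± 0.37 (adjusted p = 0.0153). Kcna2, another Shaker-type pore, was at 0.734, 1.26, 4.16 and 0.738 CPM with vehicle and 2.55, 2.07, 1.28 and 2.19 with colchicine. Vehicle 3 stood above the other 7 libraries, and the log2 change was 0.21 ± 0.57 (adjusted p = 0.783). Kcnd3 and Kcnc4, both A-type pores, had changes of 1.59 ± 0.57 and 1.63 ± 0.70 with no overlap between groups, and neither passed (adjusted p = 0.0565 and 0.0976). Both were called higher by DESeq2, by limma-voom, on log2(TPM + 1), without vehicle 4 and without vehicle 1 and 4, and Kcnd3 also without vehicle 2.

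**Figure D3:**
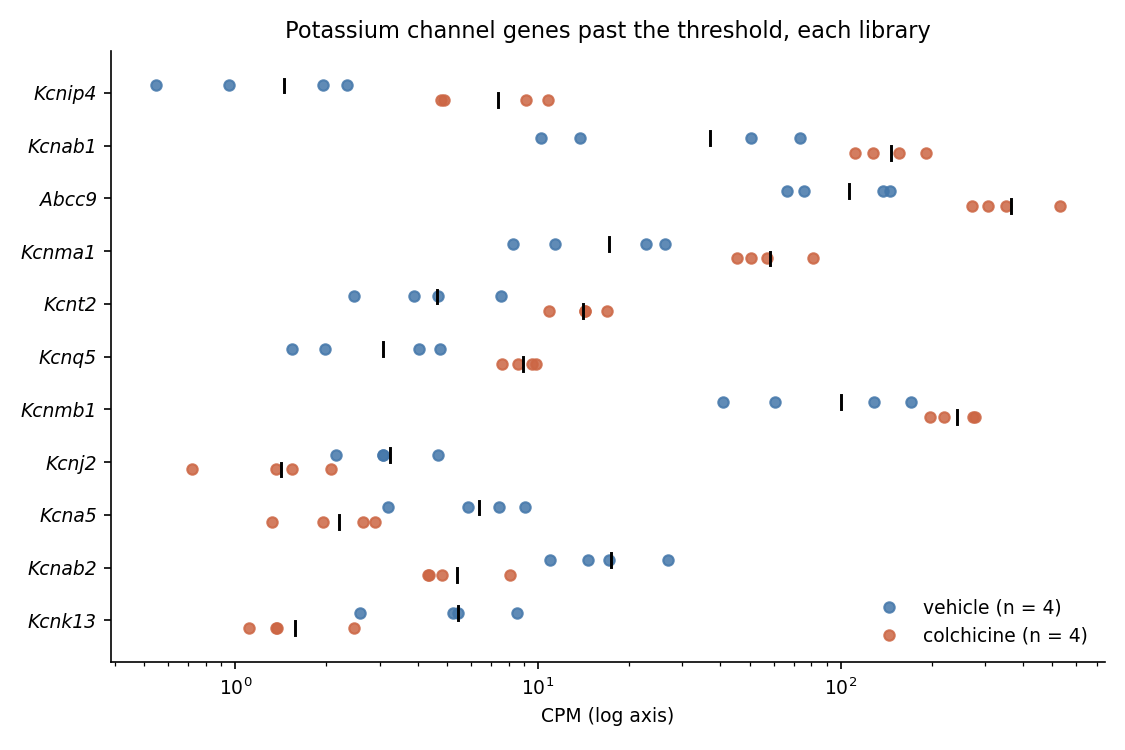
CPM in each library for the 11 potassium channel members that passed the test, with vehicle and colchicine libraries one above the other (n = 4 per group) on a log axis and a black tick at each group mean. The 11 were drawn because they passed, which favours groups that do not overlap, and the groups do not overlap for any of them. Over all genes tested the share without overlap was 39.1%, and over all genes that passed it was not computed. On this axis the vehicle range of Kcnab1, 10.2 to 73.4 CPM, is wider than its colchicine range, 111 to 191 CPM.

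Among the other classes, Kcnt2 (chr1:140246158-140612067, plus strand), a sodium-activated pore, was at 3.89, 2.47, 7.53 and 4.67 CPM with vehicle and 16.9, 14.3, 10.9 and 14.3 with colchicine. The groups did not overlap, and the log2 change was 1.60 ± 0.32 (adjusted p = 0.00861). Kcnn3, a small-conductance calcium-activated pore of endothelium, was at 0.147, 0.494, 1.00 and 1.05 CPM with vehicle and 1.08, 2.12, 0.555 and 2.08 with colchicine. Kcnn4, the intermediate-conductance pore of endothelium and immune cells, was at 15.3, 23.2, 8.63 and 12.0 CPM with vehicle and 7.25, 13.3, 8.16 and 12.5 with colchicine. Both genes overlapped between groups and neither passed, with log2 changes of 1.09 ± 0.60 (adjusted p = 0.178) and −0.52 ± 0.33 (adjusted p = 0.231). Kcnk13 (chr12:99964499-100062682, plus strand), a K2P pore prominent in microglia, the macrophages of the brain, was at 5.43, 8.51, 2.58 and 5.23 CPM with vehicle and 1.36, 1.38, 1.11 and 2.47 with colchicine. Vehicle 3 and colchicine 4 nearly met, and the log2 change was −1.78 ± 0.41 (adjusted p = 0.0125). Kcnk3, an acid-sensitive K2P pore, was at 3.08, 7.96, 23.7 and 12.0 CPM with vehicle and 14.5, 3.90, 6.28 and 5.37 with colchicine, and did not pass (log2 change −0.64 ± 0.60, adjusted p = 0.414). Its change was −0.097 without vehicle 3, −1.20 without colchicine 1 and −1.05 without vehicle 1, and passed in none of these. Kcnj2 (chr11:111066164-111076821, plus strand), a strong inward rectifier through which raised extracellular potassium dilates arteries, was at 3.08, 3.08, 2.16 and 4.67 CPM with vehicle and 1.36, 2.07, 0.722 and 1.54 with colchicine. Vehicle 3 was just above colchicine 2. Its log2 change of −1.19 ± 0.37 (adjusted p = 0.037) was lost without any one of 5 libraries, vehicle 2 or 4 or colchicine 1, 3 or 4 (adjusted p 0.0572 to 0.0901). On the log2(TPM + 1) scale none of the 4 falls passed. There the changes of Kcnab2, Kcna5, Kcnk13 and Kcnj2, taken relative to the shifted median, were −1.30, −1.14, −1.19 and −0.69.

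Per length, Kcnmb1 had the highest group median in both groups, 44.9 TPM (14.2 to 71.0) with vehicle and 131 TPM (109 to 147) with colchicine. The next medians with vehicle were Kcne4 at 41.4 and Kcnj15, an inward rectifier, at 36.8 TPM, both within the range of Kcnmb1, and Kcne4 was above Kcnmb1 in vehicle 1, 2 and 3. By the vehicle mean the order was Kcnj15 at 51.2 ± 42.4, Kcne4 at 46.7 ± 20.1 and Kcnmb1 at 43.8 ± 30.7 TPM (SD, n = 4), differences smaller than the spread. With colchicine the next medians were Kcnab1 at 118 and Abcc9 at 104 TPM, and Kcnab1 exceeded Kcnmb1 in colchicine 1 and 2 and Abcc9 did in colchicine 1. Kcnma1 was the twelfth with vehicle, at 6.67 TPM, and the ninth with colchicine, at 23.2 TPM. These ranks compare members within a group. Between groups, TPM levels also carry the shift of 0.35 in the median of all genes on log2(TPM + 1).

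Levels of some cell type markers moved beside these genes, and those of others did not. In bulk aorta, fewer cells of a type and less RNA per cell cannot be told apart. Of 8 smooth muscle markers, 4 rose and 0 fell, and their mean level was 8.36, 8.13, 9.59 and 9.95 (log2 CPM) with vehicle and 10.34 to 10.62 with colchicine. The vehicle libraries with the lower marker level, 1 and 2, were also the lowest for Kcnma1, Kcnmb1, Kcnab1, Abcc9, Kcnt2, Kcnq5 and Kcnip4. These are all 7 members that rose. Kcnh2, which did not pass, was also lowest in vehicle 1 and 2, at 26.2 and 30.0 CPM. Relative to that marker level, the groups overlapped for 5 of the 7 members that rose, with mean log2 differences of 0.33 for Abcc9, 0.39 for Kcnma1, 0.19 for Kcnt2, 0.15 for Kcnq5 and −0.00 for Kcnmb1. They did not overlap for Kcnab1 (0.93 higher with colchicine) and Kcnip4 (0.87 higher). These 7 members were chosen because they rose, and the share of all genes without overlap on this relative scale was not computed. Members that did not pass could be lower relative to the marker level, which itself was higher with colchicine. Among those without overlap, the difference was −1.21 for Kcnj8, −1.20 for Kcnh2, −1.35 for Kcnk6 and −1.95 for Kcnn4. Kcne4 (−2.05), Kcnd1 (−2.28) and Kcnj11 (−0.64) did not overlap either. The subtraction alone lowers a gene of little change: 5730480H06Rik, with a log2 change of 0.17, came out at −1.32, also without overlap. Of 8 macrophage markers, 0 rose and 5 fell, and their mean level was 6.26 to 7.21 with vehicle and 4.61 to 5.61 with colchicine. Vehicle 3 had the lowest macrophage marker level of the vehicle libraries (6.26). Of the members that fell, Kcnab2, Kcnk13 and Kcnj2 were lowest there among vehicle libraries, whereas Kcna5 was highest there. Neutrophil markers (3 of 6 tested, all 3 fell) were at 9.52 and 7.68 in vehicle 1 and 4 and at most 2.17 elsewhere. Brown adipocyte markers (5 tested, 0 rose and 1 fell), set beside Kcnk3, which brown fat expresses, were highest in vehicle 4 (4.46), colchicine 1 (3.14) and vehicle 3 (2.86). The same 3 libraries had the highest Kcnk3, at 12.0, 14.5 and 23.7 CPM. Of 8 endothelial markers 3 rose and 2 fell, 5 did not overlap between groups, and their mean level was 6.56 to 7.20 with vehicle and 6.37 to 6.95 with colchicine. Of 6 pericyte markers tested 1 rose and 0 fell (median log2 change 0.00015). Of 7 fibroblast markers 1 rose and 0 fell (median 0.35). Among 4 white adipocyte markers and 7 heart and skeletal muscle markers tested, 0 rose and 0 fell. No marker was at 0 in all libraries of a group. The part of cell content in the members' changes was not tested.

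**Figure D4:**
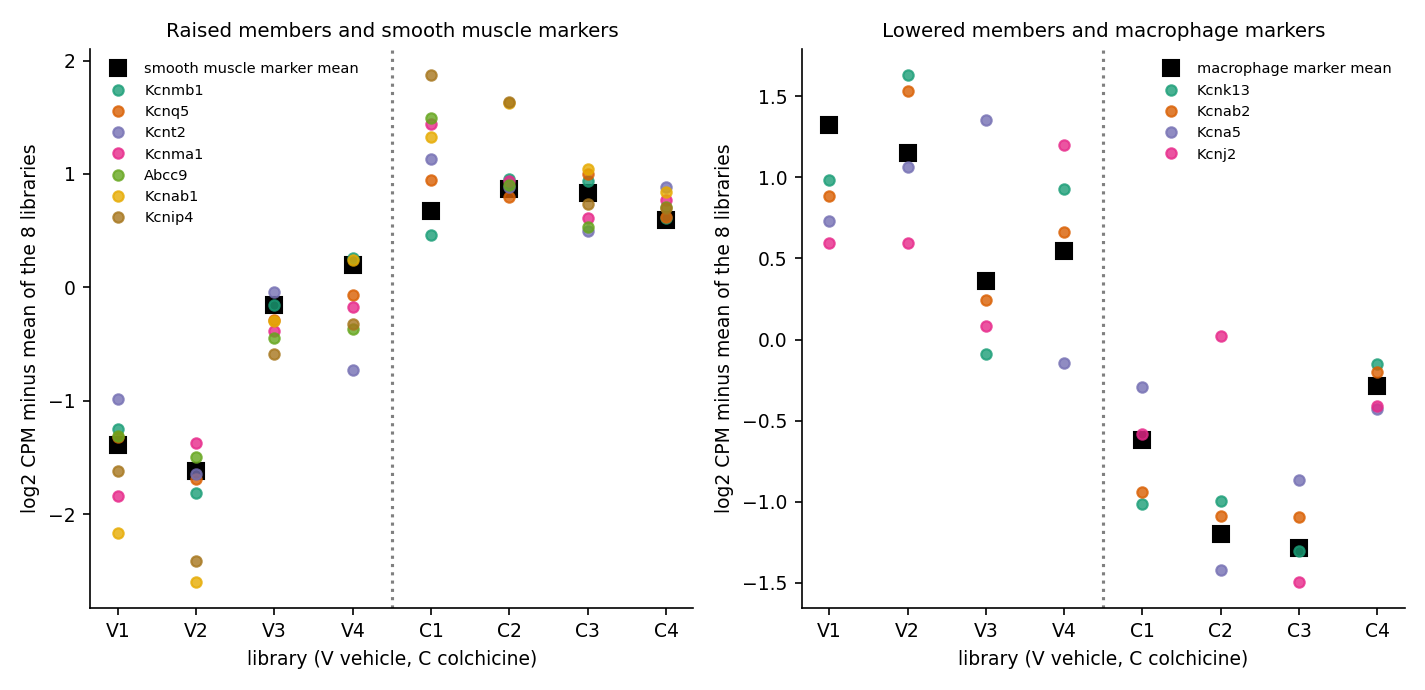
Log2 CPM of members that passed, centred on each gene's mean over the 8 libraries, beside the mean level of the smooth muscle and macrophage markers, by library. Vehicle 1 and 2 had the lowest smooth muscle marker levels, 8.36 and 8.13.

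Genes that act with these channels, a list of 53 of which 52 were in the table and 44 were tested, gave 14 rises and 4 falls, where 17.4% of all genes rose and 17.0% fell. Their median log2 change was 0.47, and 0.29 without vehicle 1, against −0.03 over all genes. Among 16 tested genes that set membrane potential and calcium entry, 5 rose and 0 fell. They include Cacna2d1, an accessory subunit of voltage-gated calcium channels (log2 change 1.30 ± 0.23, adjusted p = 0.00617), and Itpr1, the calcium release channel gated by inositol trisphosphate (1.12 ± 0.25, adjusted p = 0.0115, not past the threshold without colchicine 2). Cacnb2, a calcium channel β subunit, had a change of 1.08 ± 0.35 (adjusted p = 0.043) that was lost in 9 of the 18 alternatives. Among 15 genes of the signals that gate the channels, 6 rose and 3 fell. The cyclic GMP kinase Prkg1, which phosphorylates BK channels, rose by 1.72 ± 0.35 (adjusted p = 0.00922), the guanylate cyclase subunit Gucy1b1 by 1.79 ± 0.40 (adjusted p = 0.012) and the cyclic GMP phosphodiesterase Pde5a by 1.89 ± 0.40 (adjusted p = 0.0101). Among 13 tested accessory and anchoring genes, 3 rose and 1 fell, with Cav1, which forms caveolae, at 1.05 ± 0.29 (adjusted p = 0.0257, lost in 6 alternatives) and Amigo1, a membrane protein that binds Kv channels, at 0.85 ± 0.18 (adjusted p = 0.0101).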

How the data were processed

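Aortic RNA of 8 libraries (4 vehicle, 4 colchicine) was made with RNeasy and SMARTer kits, per the labels' protocols. The authors deposited estimated counts and TPM for each library in 1 table, per the file headers; 1 TPM column lacks the unit in its name. The build was mm10, per the submitters' processing notes; for aligner, counter, annotation and strand use, names were not given in the sources used here. Estimated counts were rounded, the 30 rows without a symbol (5.89e-05% of counts) were left out, genes were filtered with filterByExpr, scaled by TMM and tested with edgeR 4.0.16 in R 4.3.3, with Benjamini-Hochberg adjustment over 13431 genes and a threshold of 0.05. A count of 3, the floor, covers counting error only. Ratios used TPM with a pseudocount of 0.1 and an exact permutation test. Positions came from GENCODE M21 (GRCm38), which matched all 50 members, and promoters from RefSeq. Genes named were the members that passed, subunits known in arterial muscle and endothelium (Kcnj8, Kcna2, Kcnk3, Kcnn3, Kcnn4), and up to 3 partner genes per list; other named members were chosen after their values were seen. Some genes that this rule names are not reported here. Members and lists were chosen with earlier results of these data known. The alternatives, 18 in all, included DESeq2 1.42.0, limma 3.58.1 on voom weights and on log2(TPM + 1), other scalings and filters, a replicate block, and leaving out libraries. The edgeR step was also run on simulated counts drawn around the mean levels of the real genes. It recovered 78% of log2 changes of 1 and 100% of those of 2, and 5.82% of its calls were unchanged genes. Changes were planted only in genes with a mean above 50 counts per library, which Kcnj2, with 316 counts over the 8 libraries, did not reach. The simulation used the same spread setting for every gene and for both groups, unlike these libraries. These rates therefore need not hold for the members.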

Additional observations from a re-analysis of the deposited data

Results flagged for a closer look

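In 36 groups of 4 libraries, 3 libraries stood apart from the others of their group, where chance gives about 1 in 20 groups. Kcnab2, the β subunit gene that fell, was at 8.06 CPM in colchicine 4 against 4.33 to 4.82 in the other colchicine libraries. Kcnj8, the vascular KATP pore, was at 16.8 CPM in vehicle 2 against 43.6 to 48.2 in the other vehicle libraries. Kcna2, a Shaker-type pore, was at 4.16 CPM in vehicle 3 against 0.734 to 1.26 in the other vehicle libraries.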

How the results depend on the processing

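Abcc9, Kcnma1, Kcnt2, Kcnq5 and Kcnip4 passed in all 18 alternatives. The count of members that fell, 4, was 0 on log2(TPM + 1), 2 with the replicate block, 9 without vehicle 1 and 4, and 3 to 8 when single libraries were left out (8 without vehicle 4). Members that rose numbered 5 to 10 when single libraries were left out. All genes called, 2342 up and 2277 down, became 1121 and 1184 with the block, 2347 and 863 on log2(TPM + 1), and 898 to 2420 up and 1309 to 2644 down with single libraries left out. Partner genes that rose numbered 7 to 18 with single libraries left out, and those that fell 0 on log2(TPM + 1), 2 with the block and 2 to 5 with single libraries left out. The log2 ratio of Abcc9 to Kcnj8 stayed positive: 1.23 to 1.69 with single libraries left out (exact p = 0.0571, the smallest possible there), 1.21 without vehicle 1 and 4 (exact p = 0.133) and 1.52 with the replicate block (exact p = 0.125, the smallest possible). Changes that turned sign were Kcnj8, −0.077 to 0.25, and Kcna2, −0.13 to 1.10, with single libraries left out, and Kcna2 at −0.42 without vehicle 1 and 4. Same-numbered libraries did not deviate together over all genes (correlations −0.25 to 0.03), so no pairing by number was seen. This check cannot exclude pairing, because the vehicle libraries also differed widely in haemoglobin content. With the block, the changes of Kcnab1 and Kcnip4 were 2.40 and 2.39. Adjusted p from edgeR with the block was 0.0527 for Kcnab1, 0.0614 for Kcna5 and 0.0558 for Kcnj2. The causes were not tested. At this depth 3 counts in a library were 0.158 to 0.22 CPM, and the untested members had totals of 44 to 93 counts over all libraries.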
